A study of Mus musculus with 6 samples.

Results

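Cytosolic ribosomal protein genes were examined in mouse skin from 3 wild-type and 3 knock-in samples. A gene was a member if its symbol was Rpl or Rps followed by a number, or Rplp0, Rplp1, Rplp2 or Rpsa, and if a probe set of the array carried that symbol alone. Ribosomal S6 kinases, pseudogenes and mitochondrial ribosomal protein genes were left out. The rule gave 48 genes of the 18193 genes with such a probe set, 26 of the large and 22 of the small ribosomal subunit. They were read by 104 probe sets, and the one with the highest mean signal over the 6 arrays stood for each gene. The rule used no difference between the groups.

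RNA of whole skin was hybridised to Affymetrix arrays, 1 array per sample. Both groups were mice on a C57BL/6 background, the wild-type group labelled WT and the knock-in group labelled KA (source name KAB6), with the changed gene not named. Sex, age, body site and treatment are not given, and nothing in the labels says that the samples came from separate animals, so p-values measure only the spread between these samples. Every value is a MAS5 signal, a linear intensity scaled to one level per array, and the 2% trimmed mean lay between 149.1 and 149.3 on every array. Differences are knock-in minus wild-type of log2(signal + 16) with their standard error, from limma, with Benjamini-Hochberg adjusted p-values over 11680 genes and a threshold of 0.05. Each probe set binds its target with its own strength, so signals of different genes do not rank their RNA levels.

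The ribosome is built from a large (60S) and a small (40S) subunit, each a scaffold of ribosomal RNA dressed with many proteins. Each protein is needed in about equal number, and most of their mRNAs start with a run of pyrimidines, the 5′ terminal oligopyrimidine or TOP motif, through which the mTORC1 kinase and Larp1 control their translation together. In skin the epidermis is sensitive to ribosome supply, and mice with a mutation in Rps19 or Rps20 have dark skin through p53 in keratinocytes. Several members are paralogs with narrower expression, such as Rpl3l of muscle and Rpl39l of testis.

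The arrays carried marks of skin and differed in several cell type markers. The keratinocyte genes Krt5, Krt14, Krt1 and Krt10 gave signals of 1781.8 or more on every array. Summed signals of 4 basal keratinocyte markers were 14306.9 to 14610.8 in wild-type and 20055.0 to 23767.4 in knock-in arrays. Those of 4 neutrophil markers were 501.7 to 733.9 and 14264.6 to 18389.2, and those of 4 hair shaft keratins were 14836.3 to 20557.9 and 3497.5 to 7711.1. Most of the neutrophil sum in knock-in arrays came from S100a8 and S100a9, with knock-in means of 9373.5 and 6054.9. Mmp8 and Cxcr2 had knock-in means of 748.6 and 76.2. Of the basal markers, Trp63 differed by 0.01 (limma, adjusted p = 0.936). Sums of 4 suprabasal keratinocyte and 4 fibroblast markers overlapped between the groups, although single markers differed. The suprabasal marker Ivl differed by -0.54 (limma, adjusted p = 0.0136), while Krt1, Krt10 and Lor did not pass the threshold. Of the fibroblast markers, Pdgfra differed by 1.44 and Col1a1 by -0.52 (adjusted p = 6.59e-05 and 0.0197), while Col1a2 and Dcn did not pass. In bulk RNA, fewer cells of a type and less RNA per cell cannot be told apart. Xist, which is transcribed from an inactive X chromosome, lay between 27.8 and 32.5 in wild-type and between 3441.7 and 4004.7 in knock-in arrays, and Y-linked Eif2s3y lay between 639.2 and 721.0 against 4.43 to 5.45. Sex and genotype therefore cannot be told apart in any comparison here.

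The signals of most ribosomal protein genes differed little between the groups. Of the 47 members tested, 5 rose (Rpl39, Rpl39l, Rpl22l1, Rpl22 and Rps18), 2 fell (Rps6 and Rpl3l) and 40 did not pass the threshold. The members called were 14.9% of those tested, against 31.1% of all genes tested. In the large subunit 4 of 26 rose and 1 fell, and in the small subunit 1 of 21 rose and 1 fell. The median difference was 0.14 over the members, with a middle range from 0.07 to 0.20, and -0.02 over all genes, with a middle range from -0.27 to 0.22. A difference of at least 0.5 in size was seen for 10.6% of the members and 23.8% of all genes. Many members lay near the top of the signal scale. Of the 100 brightest probe sets, 27 belonged to members, whose highest mean was 13082.2, and the highest signal of any probe set was 16211.7. Whether signals this high understate differences in RNA was not tested. Rps16, of the small subunit, had only a probe set with a mean signal of 0.437 and was the member not tested.

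With each array's median set equal instead of the deposited scaling, 26 members were called higher and 2 lower, while 2567 of all genes (22.0%) were called higher and 1202 (10.3%) lower. With the deposited scaling these totals were 1729 (14.8%) and 1908 (16.3%), so the share of higher calls among all calls went from 47.5% to 68.1%. Median centring moved the median of all genes to 0.11 and that of the members to 0.28. The members' median lay 0.17 above that of all genes under both scalings and 0.05 above it under quantile normalization, where 4 members were called higher and 1 lower, against 15.9% and 14.9% of all genes. The number of small increases among ribosomal protein genes thus depended on how the arrays were scaled, as did the sign for Rplp2, Rps29, Rps10, Rps4x, Rps24, Rpl38, Rpl4 and Rpl7, which were positive as deposited and below 0 after quantile normalization, none of them past the threshold. Leaving out 1 array at a time gave 3 to 4 members higher and 1 to 2 lower. It was 3 higher without wild-type 1, wild-type 3, knock-in 1 or knock-in 3, and 1 lower without wild-type 3, knock-in 2 or knock-in 3.

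**Figure D1:**
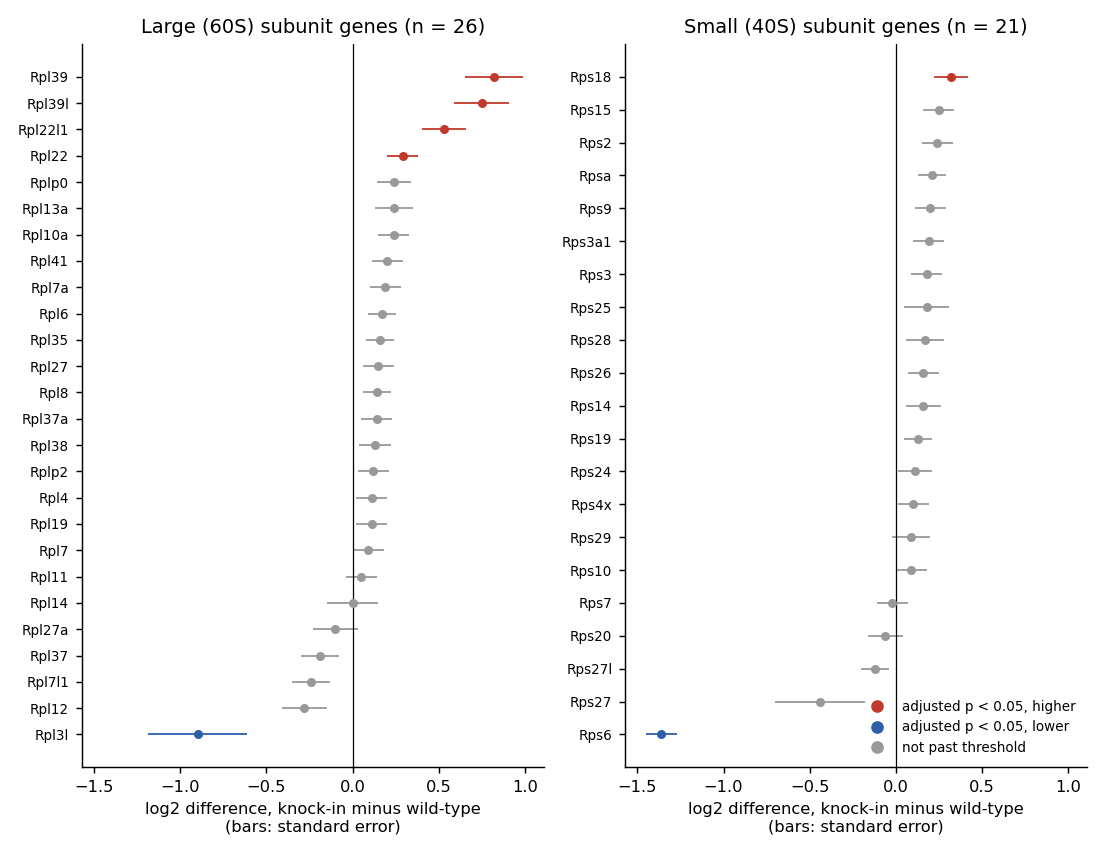
Log2 difference of log2(signal + 16), knock-in minus wild-type, for the 26 large and 21 small subunit genes tested (points, with bars for the standard error; red and blue mark an adjusted p under 0.05). Most points sit between 0 and 0.3, while Rpl39, Rpl39l and Rpl22l1 lie at 0.53 or above and Rpl3l and Rps6 lie at -0.90 and -1.36.

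The mRNA starts of the members called, other than Rpl22, are shown first, to set the longest pyrimidine run around the start beside the values. The sequences are the 15 bases before to the 15 bases after the annotated start, 5′ to 3′ on the gene's strand, from RefSeq on build GRCm38.p6. Capitals mark the longest run of C and T where it has 5 bases or more. Rpl7a and Rpl35, which were not called, are added as members with long runs.
Rps6, chr4:86857353-86857382, minus strand: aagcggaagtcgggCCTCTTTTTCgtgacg
Rps18, chr17:33955651-33955680, minus strand: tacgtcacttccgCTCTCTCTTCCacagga
Rpl22l1, chr3:28805493-28805522, plus strand: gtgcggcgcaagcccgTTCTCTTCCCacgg
Rpl39, chrX:37085208-37085237, minus strand: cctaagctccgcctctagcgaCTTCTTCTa
Rpl39l, chr16:10170213-10170242, plus strand: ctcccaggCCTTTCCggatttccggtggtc
Rpl3l, upstream start, chr17:24727811-24727840, plus strand: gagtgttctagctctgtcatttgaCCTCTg
Rpl7a, chr2:26910792-26910821, plus strand: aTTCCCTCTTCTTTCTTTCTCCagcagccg
Rpl35, chr2:39005117-39005146, minus strand: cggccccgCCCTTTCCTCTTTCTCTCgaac

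The runs in Rps6, Rps18, Rpl22l1, Rpl39, Rpl7a and Rpl35 had 8 bases or more, while those in Rpl39l and Rpl3l had 7 and 5 bases. The starts of Rpl22, which was also called, had runs of 4 and 5 bases, and the downstream start of Rpl3l had 4. RefSeq starts were matched for 43 of the 48 members, with 51 starts. A run of at least 8 pyrimidines in this 30-base window was found at 19 of the 51 starts (37.3%) and at 3943 of all 32851 starts (12%). Such a run need not begin at the start itself, so these shares do not count TOP motifs. The motif CCGGAAG, searched on both strands in the 300 bases from 250 before to 50 after the start, was found at 21 member starts (41.2%) and at 8.86% of all starts. The genes Rps6, Rps18, Rpl39 and Rpl39l held it, and Rpl22l1, Rpl22 and Rpl3l did not. The TATA motif TATAAA, searched from 40 to 16 bases before the start, was found at 1.96% of member starts and 1.99% of all starts. Of the genes that rose, Rps18, Rpl22l1 and Rpl39 had a run of 8 bases or more, and Rpl39l and Rpl22 had shorter ones. Of the 2 that fell, Rps6 had such a run and Rpl3l a shorter one. These genes are too few to relate runs to differences, and a relation was not tested.

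Rpl22l1 and Rpl22 are paralogs, and the Rpl22 protein is known to repress Rpl22l1. Rpl22l1 had signals of 3745.9, 2769.6 and 3553.5 in wild-type and 4577.8, 5274.1 and 4608.0 in knock-in arrays. All 3 knock-in arrays lay above all 3 wild-type arrays, and the gene rose by 0.53 ± 0.13 (limma, adjusted p = 0.0147).

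Rpl22, a 60S protein that also binds RNA outside the ribosome, had signals of 6967.5, 8176.6 and 7674.9 in wild-type and 9425.9, 9388.3 and 9072.5 in knock-in arrays. The groups did not overlap, and the difference was 0.29 ± 0.09 (limma, adjusted p = 0.0443). The 3 probe sets of Rpl22 disagreed. One of the others read 5059.8, 4904.2 and 4646.7 against 4493.0, 4776.0 and 4738.8, a difference of -0.06. The other read 902.2, 975.9 and 891.4 against 396.4, 477.9 and 483.8, a difference of -1.01. The direction for Rpl22 therefore depended on the probe set, and the mean over its probe sets was -0.26 with an adjusted p of 0.0678. Its call was also lost when any array but wild-type 2 was left out.

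Rpl39 and Rpl39l code for a short 60S protein at the exit tunnel of the ribosome and its paralog, which is best known from testis. The probe set read for Rpl39l gave 327.9, 343.1 and 220.8 in wild-type and 484.4, 469.4 and 551.3 in knock-in arrays. It did not overlap between the groups and rose by 0.75 ± 0.16 (limma, adjusted p = 0.00892). It was the one member past the threshold under all 19 alternatives, where its difference ranged from 0.56 to 0.88.

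The X-linked gene Rpl39 was read by a dim probe set with signals of 40.3, 47.2 and 60.5 in wild-type and 84.1, 121.7 and 93.4 in knock-in arrays. The array medians were 37.5 to 45.7, so the wild-type values lay close to the middle of all probe sets. The groups did not overlap and the difference was 0.82 ± 0.17 (limma, adjusted p = 0.00811). A bright probe set whose annotation also names a pseudogene gave 8770.4, 9944.9 and 8920.1 against 11377.6, 12086.4 and 9375.4. There the groups overlapped, and the difference for Rpl39 was 0.24 ± 0.11 (adjusted p = 0.139). Rps4x, the other X-linked member and a core 40S protein, differed by 0.10 ± 0.09 (adjusted p = 0.410).

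Rps18, a protein of the 40S head, was the one small subunit gene that rose. Its signals were 6482.0, 6697.4 and 6437.2 in wild-type and 9023.7, 7572.7 and 7947.2 in knock-in arrays. Every knock-in array was above every wild-type array, and the difference was 0.32 ± 0.10 (limma, adjusted p = 0.0347). The other bright probe sets of Rps18 gave 0.22 and 0.17, also without overlap. Its call was lost under 9 of 19 alternatives, among them each of the 6 that left out 1 array except that without knock-in 2, and its difference ranged from 0.17 to 0.45.

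Rps6 had the largest difference of all members. It is the 40S protein phosphorylated by the S6 kinases downstream of mTORC1. The brighter of the 2 probe sets that carry its symbol alone gave 543.1, 622.1 and 582.3 in wild-type and 212.6, 218.8 and 219.5 in knock-in arrays. The groups lay far apart, and the signal fell by 1.36 ± 0.09 on the log2 scale (limma, adjusted p = 3.46e-05). The other probe set with the symbol alone had a mean signal of 12, under the array medians, and overlapped between the groups at -0.30. Further probe sets of Rps6 have an annotation that also names the pseudogene Rps6-ps4, and these disagreed. The brightest gave 8293.3, 10125.8 and 9087.2 against 10950.8, 10015.7 and 8872.4. The groups overlapped there, and the difference was 0.12 ± 0.11 (adjusted p = 0.463). Of the other shared probe sets, 1 with a mean signal of 2027.7 differed by -1.09 and 1 with a mean of 1885.3 by -0.69, both without overlap. The probe sets of Rps6 thus disagreed in size and sign, and the call was lost when the brightest shared probe set stood for the gene.

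Rpl3l replaces Rpl3 in heart and skeletal muscle ribosomes. Its signals were 156.8, 289.2 and 205.1 in wild-type and 171.7, 91.1 and 74.1 in knock-in arrays. The groups overlapped, since knock-in 1 was above wild-type 1, and the signal fell by 0.90 ± 0.29 on the log2 scale (limma, adjusted p = 0.0449). Summed signals of 4 skeletal muscle markers (Acta1, Ckm, Myh4 and Pvalb) were 23075.0, 35597.7 and 27944.8 in wild-type and 20038.9, 13012.7 and 13439.4 in knock-in arrays. As for Rpl3l, wild-type 2 was the highest array and knock-in 1 the highest of its group, and 3 of the 4 markers fell. The part of muscle content in the value of Rpl3l was not tested. The call was lost under 9 of 19 alternatives, among them leaving out wild-type 2, wild-type 3, knock-in 2 or knock-in 3.

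**Figure D2:**
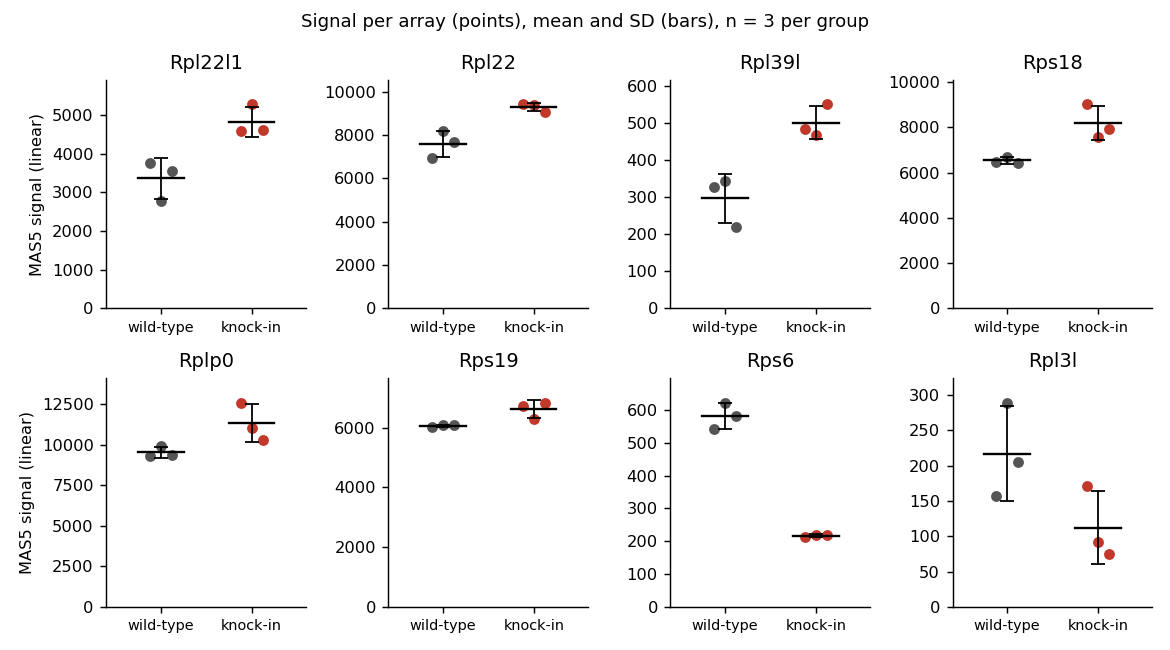
MAS5 signal (linear, vertical axis) of 8 members on each array (points, grey for wild-type and red for knock-in), with mean and SD (bars, n = 3 per group). The 3 knock-in points lie above the 3 wild-type points for Rpl22l1, Rpl22, Rpl39l, Rps18, Rplp0 and Rps19 and below them for Rps6, while those of Rpl3l overlap.

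The other paralogs did not pass the threshold. Rps27l, a p53 target close in sequence to Rps27, read 3396.4, 3261.9 and 3430.1 in wild-type and 3038.2, 3097.2 and 3157.5 in knock-in arrays. Its groups did not overlap, but its difference of -0.12 ± 0.08 had an adjusted p of 0.289 in limma, and it was 0.01 with median centring and 0.06 with another probe set. Rpl7l1, which acts in 60S assembly, differed by -0.24 ± 0.11 (adjusted p = 0.128). Its other probe sets, with mean signals of 373.9 and 85.3, went the other way, at 0.14 and 0.19. Within an array the log2 ratio of Rpl7l1 to Rpl7 was lower in knock-in by 0.32, with values of -4.02, -4.19 and -3.84 in wild-type and -4.48, -4.20 and -4.33 in knock-in arrays. The exact permutation p was 0.1, two-sided, the smallest that 3 against 3 allows, and 0.400 after adjustment over the 4 pairs tested. For Rpl22l1 to Rpl22, Rpl39l to Rpl39 and Rps27l to Rps27 the ratio changed by 0.24, -0.08 and 0.33, and the groups overlapped in each, with exact permutation p-values of 0.400, 0.800 and 0.400. The ratios to Rpl39 and Rps27 rest on their dim probe sets, whose differences of 0.82 and -0.44 stand against 0.24 and 0.20 on the bright shared ones, so no direction is read from them. The probe sets of Rpl7l1 and of Rpl22 disagreed as well, so no direction is read from their ratios either.

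The stalk of the large subunit recruits translation factors and is built from Rplp0 and the acidic proteins Rplp1 and Rplp2. Rplp0 had signals of 9305.1, 9928.9 and 9389.6 in wild-type and 12597.6, 11052.1 and 10308.6 in knock-in arrays. Its groups did not overlap, but the difference of 0.24 ± 0.10 did not pass the threshold (limma, adjusted p = 0.106). Rplp2 read 10299.4, 10778.7 and 10631.4 against 12483.0, 11085.2 and 10948.2. It also lay higher on every knock-in array, by 0.12 ± 0.09 (adjusted p = 0.362).

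Rpsa, a 40S protein also known as the laminin receptor, had signals of 6169.2, 6194.7 and 6291.6 in wild-type and 7419.4, 7131.8 and 6993.9 in knock-in arrays. The groups did not overlap, and the difference of 0.21 ± 0.08 had an adjusted p of 0.0870 in limma. Rpl10a, Rps15 and Rps2 were the other members with an adjusted p between 0.05 and 0.1. They differed by 0.24, 0.25 and 0.24, with adjusted p-values of 0.0615, 0.0637 and 0.0793. Rps19, mutated in Diamond-Blackfan anaemia, read 6041.0, 6091.6 and 6080.5 in wild-type and 6743.7, 6292.5 and 6846.5 in knock-in arrays. The difference was 0.13 ± 0.08 (adjusted p = 0.287), and that of Rps20, which lies near it in the 40S head, was -0.06 ± 0.10.

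The members with the highest signals showed no call. Rps29, a zinc-binding 40S protein, read 11700.8, 13850.0 and 12463.3 in wild-type and 15068.6, 12975.5 and 12434.9 in knock-in arrays. Its groups overlapped, with a difference of 0.09 ± 0.11. Rpl13a, which also takes part in translational silencing in myeloid cells, differed by 0.24 ± 0.11 (limma, adjusted p = 0.140), and Rps10 differed by 0.09 ± 0.09. Rpl11, whose free protein binds Mdm2, differed by 0.05 ± 0.09, and Rps3, which is also a partner of NF-kB, by 0.18 ± 0.09. The dim probe sets of Rpl12 and Rps27 differed by -0.28 ± 0.13 and -0.44 ± 0.26 and did not pass, although Rps27 passed without wild-type 2, at -0.75.

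Small positive differences were nevertheless frequent among members with bright probe sets. Of the 36 members with a mean signal of at least 2000, 33 had a positive difference, 8 of which were below 0 after quantile normalization, and 3 (Rps20, Rps7 and Rps27l) a negative one, which was above 0 after median centring. The median was 0.16. Only Rpl22l1, Rpl22 and Rps18 of them were called, 8.33%. Of the 460 other genes with a mean signal of at least 2000, 43.3% were called, and their median was 0.06. Beyond that floor the 460 were not matched to the members in signal, and the lowest mean among the 36 was 3230.2. Of those 460, 256 had a positive difference, as had 5566 of all 11680 genes tested. The 33 bright members not called ranged from -0.12 to 0.25. Among all 47 members tested, the 3 knock-in arrays lay wholly above the wild-type arrays for 26 and wholly below for 2 (Rps6 and Rps27l), and the groups overlapped for 19. The share without overlap was 59.6%, against 47.1% of all genes tested, of which 22.0% lay higher and 25.1% lower.

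The shift was largest on 1 knock-in array. On the median bright member, the 3 wild-type arrays lay at -0.09, -0.05 and -0.08 and the knock-in arrays at 0.17, 0.05 and 0.01 from the mean of the 6 arrays on the log2 scale. The other genes tested lay between -0.02 and 0.01 on every array. Knock-in 1 was the highest array for 32 of the 36 bright members, and wild-type 1 was the lowest for 16. Knock-in 1 was also the highest array for 127 of the 460 other bright genes, more than any other array, and their median lay at 0.07 there and between -0.03 and 0.03 on the others. The bright controls were highest there too, with 11669.8 against 9290.8 to 10268.0 for the actin 3′ probe set and 9578.5 against 6483.4 to 8598.5 for the Gapdh 5′ probe set. The 5′ control for 18S ribosomal RNA read 1313.6 to 2286.2 in wild-type and 166.4 to 765.6 in knock-in arrays. The middle 18S control read 1009.2 to 1706.4 against 409.7 to 918.5. The 3′ 18S control overlapped between the groups, with 260.4 to 483.2 against 220.3 to 305.8. The part of these array differences in the members' shift was not tested. The median over the members was 0.11 without knock-in 1 and 0.12 without wild-type 1, against -0.01 and -0.02 over all genes.

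**Figure D3:**
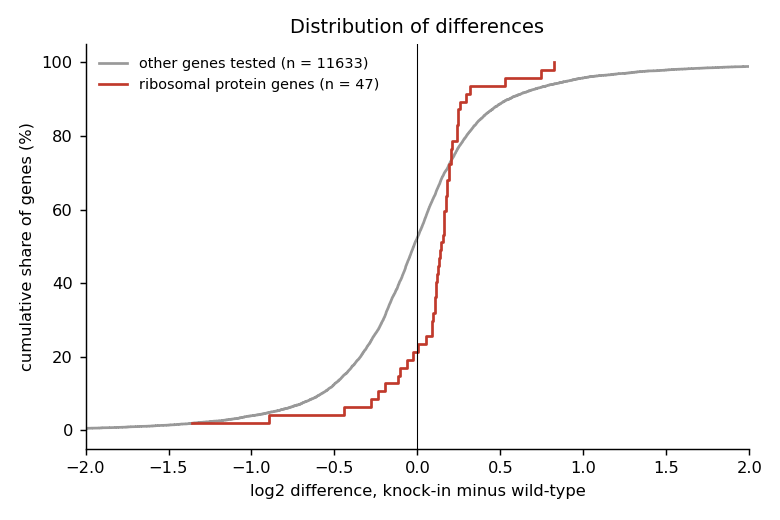
Cumulative share of genes (vertical axis, %) against the log2 difference, knock-in minus wild-type, for the 47 ribosomal protein genes tested (red) and the other 11633 genes tested (grey). The red curve climbs steeply just right of 0, around its median of 0.14, and the grey curve climbs slowly through 0.

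Ribosomal protein genes have many processed pseudogenes. A further 102 probe sets of the array name a ribosomal protein gene together with pseudogenes, predicted genes or retrogenes. They were left out by the rule and were read as an alternative chosen after the data had been seen. With them 72 genes were tested, of which 5 rose (Rpl22, Rpl22l1, Rpl39l, Rps18 and Rps25) and 1 fell (Rpl3l). This is 8.33% of the genes, against 31.1% of all genes in that fit, and the median was 0.16. The 24 genes read by shared probe sets alone, among them Rpl3, Rpl5, Rpl10, Rpl31, Rplp1 and Rps23, had 0 calls in limma, with a lowest adjusted p of 0.105. Their differences ran from -0.12 to 0.20, with a median of 0.15. Of the 24, 22 were positive, against 5566 of the 11680 genes tested without shared probe sets. Rps25, called only there, read 5464.7, 5558.2 and 5263.1 against 6966.3, 7136.4 and 5980.2, a difference of 0.30 ± 0.09 (limma, adjusted p = 0.0411). For Rpl12, Rpl27a, Rpl37, Rps27 and Rps6 the bright shared probe set had a positive difference, of 0.14, 0.16, 0.21, 0.20 and 0.12, where the dimmer probe set of the gene had a negative one.

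Over all 206 probe sets of these genes, positive differences were most frequent among the bright ones. Of the 144 with a mean signal of at least 2000, 125 had a positive difference, with a median of 0.15. Of the same 144, 91 did not overlap with knock-in higher, against 22.0% of all genes tested. Many of these probe sets read the same gene, so they are not separate genes. Of the 31 with a mean between 100 and 2000, 12 were positive, with a median of -0.19. Of the 31, 8 did not overlap with knock-in lower, a share near the 25.1% of all genes tested. Of the 31, 7 had a difference of -0.5 or below, among them Rpl3l and probe sets of Rps6, Rpl22, Rps24, Rps21 and Rpl31. Another 31 probe sets had a mean under 100, with 12 positive and a median of -0.05. For Rps24 the dim probe set read 262.2, 308.9 and 297.6 against 153.6, 205.1 and 178.8, a difference of -0.65, while its bright probe set differed by 0.11 ± 0.10. One dim probe set of Rpl37a went the other way, with 95.2, 284.8 and 63.0 against 350.0, 347.1 and 344.6, a difference of 1.39, while the bright one differed by 0.14 ± 0.09. The cause of the disagreement between probe sets was not tested.

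**Figure D4:**
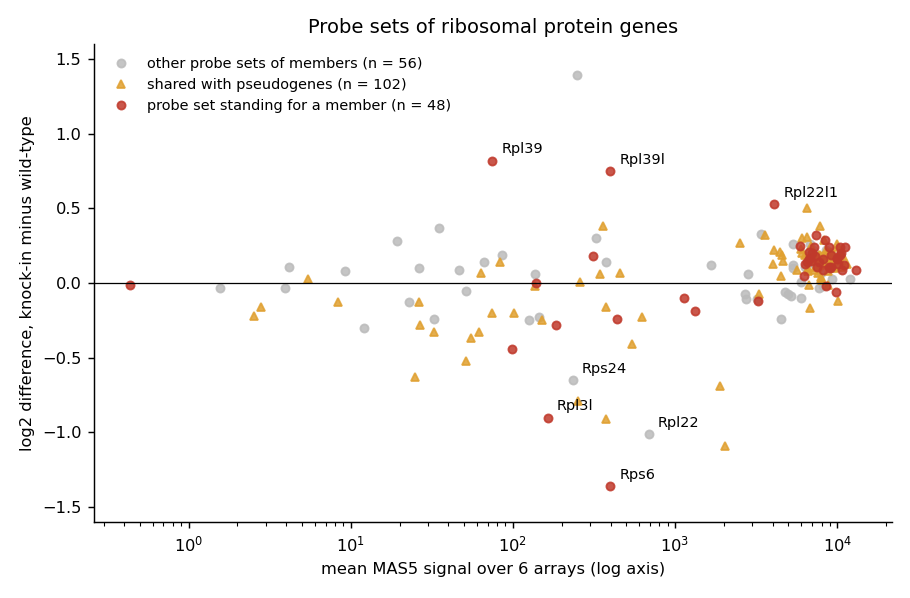
Log2 difference, knock-in minus wild-type, against the mean MAS5 signal over 6 arrays (log axis) for 206 probe sets of ribosomal protein genes. Red marks the probe set standing for a member (n = 48) and grey the other probe sets of members (n = 56). Orange marks those shared with pseudogenes, predicted genes or retrogenes (n = 102). Bright probe sets cluster just above 0, and those of -0.5 or below, such as Rps6 at -1.36, lie at a mean signal of 2027.7 or less.

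Genes that build and drive the ribosome were read from lists of known function. The share of genes called was 31.1% over all genes, and each list's share is given against it. Of 68 ribosome assembly factors, 7 rose and 1 fell, 11.8%, with a median of 0.14. Eif6, which keeps the subunits apart until the 60S is mature, rose from signals of 1162.6, 880.9 and 881.6 to 1654.9, 1731.5 and 1476.6, by 0.73 ± 0.13 (limma, adjusted p = 0.00318). Noc4l of 40S assembly rose by 0.55 and Riok2, a kinase of late 40S maturation, fell by 1.03 on the log2 scale (adjusted p = 0.00542 and 0.00159). Of 15 genes of RNA polymerase I, which makes the ribosomal RNA precursor, 3 were called (20%), 4 had a positive difference and the median was -0.09. The subunits Polr1d and Polr1c rose, by 0.53 and 0.31, and the terminator protein Ttf1 fell by 0.50. The call of Polr1c was lost without wild-type 2, wild-type 3 or any 1 knock-in array, and that of Ttf1 without wild-type 1, wild-type 3, knock-in 2 or knock-in 3. Both were also lost with the mean over probe sets, at 0.18 and -0.27.

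The snoRNA host genes carry in their introns the small RNAs that guide ribosomal RNA modification, and several have TOP starts of their own. Of 9 tested, 4 rose and 0 fell (44.4%, against 14.8% of all genes for a rise), and the knock-in arrays lay wholly above the wild-type arrays for all 9, against 22.0% of all genes, with a median of 0.38. Snhg8 read 647.3, 635.2 and 637.5 in wild-type and 972.8, 1006.9 and 925.6 in knock-in arrays. Its groups lay apart, by 0.58 ± 0.08 (limma, adjusted p = 0.00115). Zfas1 rose by 0.94 (adjusted p = 0.00824), from 874.9, 873.6 and 535.1 to 1220.1, 1423.7 and 1704.9. Snhg1 rose by 0.51 (adjusted p = 0.00697), a call lost with the mean over probe sets, at 0.35.

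Of 17 translation factors and related proteins with TOP mRNAs, Nap1l1 alone passed (5.88%, against 31.1% of all genes), and the median was 0.07. Nap1l1 differed by 0.36 ± 0.10 (limma, adjusted p = 0.0251). The elongation factor Eef2 differed by 0.20 and Btf3, a factor of nascent chains, by 0.26, with adjusted p-values of 0.0942 and 0.0532. Their direction turned with the probe set, to -0.25 for Eef2 with the mean over probe sets and to -0.27 for Btf3 without probe sets ending in _s_at or _x_at. Nap1l1 was 0.02 with the mean over probe sets. Fau, which codes for the 40S protein eS30 fused to a ubiquitin-like protein, differed by 0.24 (adjusted p = 0.0552). Of 24 initiation factors, 2 rose and 2 fell (16.7%, against 31.1% of all genes), among them Eif3b at 0.41, X-linked Eif2s3x at 0.34 and Eif5b, which joins the subunits, at -0.46, or -0.15 and not past the threshold with the mean over probe sets. The calls of Nap1l1 and Eif2s3x were lost without wild-type 2, wild-type 3, knock-in 2 or knock-in 3.

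In the mTORC1 pathway 4 of 22 genes rose and 2 fell, 27.3%, near the 31.1% of all genes, and the median was 0.01. The 3 genes with the smallest p are given. Eif4ebp1, the inhibitor of cap-dependent initiation that mTORC1 switches off, read 506.9, 599.8 and 601.5 in wild-type and 1161.9, 1066.0 and 1089.3 in knock-in arrays. It rose by 0.94 ± 0.10 (limma, adjusted p = 2.87e-04). Pdcd4, an inhibitor of the initiation helicase, read 1988.0, 1529.6 and 1764.9 against 804.9, 991.6 and 993.2, and fell by 0.91 on the log2 scale (adjusted p = 0.00117). Rragd, a Rag GTPase that brings mTORC1 to the lysosome, fell by 1.08 (adjusted p = 0.00391).

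Of 10 genes of the Myc network, which drives transcription of ribosomal genes, 1 rose and 2 fell, 30%, near the 31.1% of all genes. Myc differed by 0.31 (limma, adjusted p = 0.0740), Mycn fell by 1.61 on the log2 scale (adjusted p = 0.00130), Mycl fell by 0.56 and the antagonist Mxd1 rose by 0.54. Of 12 genes of the p53 pathway, which senses free ribosomal proteins through Mdm2, 2 were called (16.7%). Mdm2 rose by 0.32 and Mdm4 fell by 0.52, or -0.14 and not past the threshold with the mean over probe sets. The p53 target Ccng1 differed by -0.48 with an adjusted p of 0.0995. Mycl did not pass without wild-type 3, knock-in 1 or knock-in 3, and Mdm2 passed with 1 array left out only without wild-type 3. The mitochondrial ribosomal proteins, coded by other genes, had 10 of 76 higher and 1 lower (14.5%), with a median of 0.10. Mrpl17 and Mrpl52 rose by 0.48 and 0.35 and Mrps31 fell by 0.45. With the mean over probe sets these were 0.03, 0.18 and -0.37 and did not pass the threshold.

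**Figure D5:**
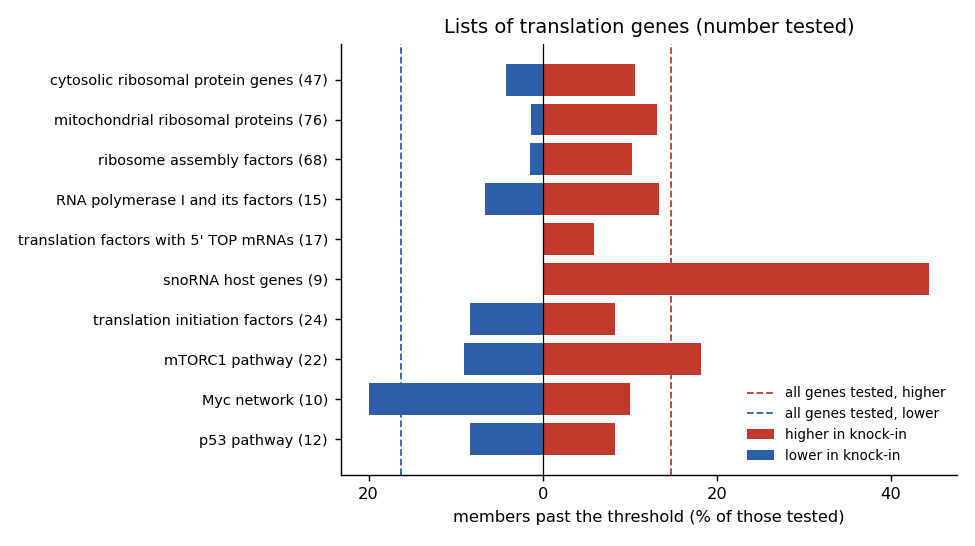
Share of each list's tested genes past the threshold (horizontal axis, %; red to the right for higher and blue to the left for lower in knock-in; number tested in brackets), with dashed lines at the shares over all genes tested (14.8% higher, 16.3% lower). The bars of the cytosolic ribosomal protein genes stay inside both lines, and the snoRNA host genes reach 44.4% on the higher side.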

How the data were processed

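The deposited table holds, for each of 6 arrays, a linear intensity per probe set, made with MAS5 per the submitters' processing notes, which state no version. Of 45101 probe sets, 64 controls were left out, and by the platform annotation 34945 had 1 gene symbol, 932 several and 9160 none. Of the 9 symbols excluded from the members, 6 were S6 kinase genes. The others were Rps19bp1 and the RefSeq pseudogenes Rps4l and Rps15a-ps6. A gene entered the test if its signal exceeded the array median on 3 or more arrays. log2(signal + 16) was fitted with lmFit and eBayes (trend, two-sided) in limma 3.58.1 under R 4.3.3, with Benjamini-Hochberg adjustment, and the procedure was tested on simulated data. Having 3 arrays per group limits the precision.

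The members and lists were chosen with earlier results of these data known. The rule for named genes took the stalk genes and Rpsa, up to 8 members with the largest non-overlapping difference each way, the 4 brightest, the paralogs with their parents, X-linked members and the 3 genes of each list with the smallest p. Other genes were named after their values were seen. Alternatives were offsets of 1 and 64, other filters, scalings, probe set rules and variance priors, array weights, no sex-linked genes, a replicate block and each array left out. The main fit did not pair arrays by replicate number.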

Additional observations from a re-analysis of the deposited data

How the results depend on the processing

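As deposited, 5 ribosomal protein genes rose, 2 fell and the median was 0.14. The number that rose was 3 with no filter, 3 without probe sets ending in _s_at or _x_at, 26 with median centring and 2 with the replicate block. The number that fell was 1 with no filter, quantile normalization, the mean over probe sets, a robust prior, the replicate block or shared probe sets. It was 3 (Rpl3l, Rps24 and Rps6) without probe sets ending in _s_at or _x_at. The median was 0.05 under quantile normalization and 0.28 under median centring. With 1 array left out, 3 to 4 rose and 1 to 2 fell. Over all genes, the median was 0.01 under quantile normalization, 0.11 under median centring and -0.04 with the mean over probe sets, and 1202 genes fell under median centring, 1263 with the replicate block and 1225 to 1751 with 1 array left out. The other lists together had 32 genes higher and 10 lower, but 66 and 5 (median 0.22) with median centring, 12 higher with the replicate block and 16 to 43 higher with 1 array left out.

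Signs turned for the following, none past the threshold except Rps24 at -0.65. Under quantile normalization Rpl38 was -0.0021, Rpl4 -0.01, Rpl7 -0.02, Rplp2 -0.02, Rps10 -0.04, Rps24 -0.03, Rps29 -0.06 and Rps4x -0.02. Under median centring Rpl27a was 0.03, Rps20 0.07, Rps27l 0.01 and Rps7 0.11. With the mean over probe sets Btf3 was -0.04, Eef2 -0.25, Rpl22 -0.26, Rpl27 -0.02, Rpl41 -0.0022, Rpl7l1 0.03, Rps20 0.05 and Rps24 -0.07. Without probe sets ending in _s_at or _x_at Btf3 was -0.27, Rpl22 -0.06, Rpl41 -0.25, Rps20 0.14, Rps24 -0.65 (limma, adjusted p = 0.00524) and Rps27l 0.06. Rpl14 was -0.03 with array weights and ran from -0.11 to 0.11 with 1 array left out, and Rps7 from -0.09 to 0.01. With shared probe sets, chosen after seeing the data, Rpl12 was 0.14, Rpl27a 0.16, Rpl37 0.21, Rps27 0.20 and Rps6 0.12. Fewer arrays or residual degrees of freedom and other probe sets are part of these settings, and beyond that the cause was not tested. Same-numbered arrays had correlations of their deviations of -0.25, -0.41 and -0.02, so they shared only a number. With the replicate block Rpl39, Rpl39l and Rps6 were the members called, and Rpl22l1 had an adjusted p of 0.0556. Dim probe sets such as that of Rpl39 limit what can be read.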
